A study of Oryctolagus cuniculus with 8 samples.

Results

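The crystallins are the soluble proteins that fill the fibre cells of the lens, and several of their genes are also read in the retina. Transcript levels of 9 crystallin genes, chosen by symbol as the α-, β- and γ-crystallins CRYAA, CRYAB, CRYBA1, CRYBA2, CRYBA4, CRYBB1, CRYBB2, CRYBB3 and CRYGS, were followed through the retinas of rabbits on 4 diets. Of these, 8 were found among the 25666 genes measured (19293 of them protein-coding), and CRYAA was not analysed here. The 8 retinas came from wild-type male Chinchilla rabbits, aged about 10 months, that had been kept on their diets for 6 months, and each diet was represented by 2 retinas, from which RNA was sequenced. ND rabbits received standard chow alone. For the HFD group, 10% lard and 0.5% cholesterol were mixed into this chow. The HSD chow held 40% sucrose, and the HFSD chow held 35% sucrose together with the lard and cholesterol of the HFD. Whether the retinas of a group came from separate animals was not stated in the labels, so p-values measure the spread between these retinas, which may be technical. The ND retinas serve in all 3 comparisons with ND, which therefore share their deviations.

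The α-crystallins belong to the small heat shock proteins, chaperones that hold unfolding proteins in solution. CRYAB is made in many tissues outside the lens, muscle and glia among them. The β- and γ-crystallins form a separate family of compact proteins built from Greek key motifs, and crystallin transcripts of both families are known to respond to injury, light and metabolic stress in the retina. Lens tissue carried along in dissection is a known further source of these transcripts.

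Levels are given as FPKM, the fragments on a gene divided by its length and by the depth of the library, so that levels of different genes can be set side by side per length. The depth by which each library had been divided lay between 15764577 and 22785832 fragments. For a gene 1 kilobase long, each fragment added 0.0439 FPKM where the depth was greatest and 0.0634 FPKM where it was least. The 9 rod marker genes measured, PRPH2 among them, summed to 36720 FPKM at the lowest and 50520 FPKM at the highest. In whole retina, fewer cells of a type and less RNA per cell cannot be told apart.

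The 8 crystallins fell into 3 tiers of level. CRYAB stood far above the others, with a mean of 206.1 FPKM over the 8 libraries, a level above that of 98.1% of protein-coding genes. CRYBB3 followed with a mean of 10.9 FPKM, and CRYBB2 with 6.27 FPKM, both in the upper part of the ranking of protein-coding genes (63.9% and 54.8% of genes lay below them). The other 5 members, CRYBA2, CRYBA4, CRYGS, CRYBB1 and CRYBA1, had means from 0.381 down to 0.0366 FPKM and did not reach 1 FPKM in any library. CRYAB made up between 85.3% and 94.9% of the summed crystallin level. Its share was above 93% in both ND and both HFD retinas, and in HFSD replicate 2, and below 88% in both HSD retinas and in HFSD replicate 1.

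CRYAB stood at 207.9 and 187.4 FPKM on ND, at 290.9 and 317.3 FPKM on HFD, at 177.6 and 174.7 FPKM on HSD, and at 122.7 and 170.7 FPKM on HFSD. Both HFD retinas were higher, and all 4 retinas on sucrose were lower, than either ND retina. Between 1476 and 3184 fragments lay behind each of these values. The means were 198 ± 14.5 FPKM for ND, 304 ± 18.6 FPKM for HFD, 176 ± 2.06 FPKM for HSD and 147 ± 33.9 FPKM for HFSD (SD, n = 2 each). The difference on the log2(FPKM + 1) scale from ND was 0.62 (SE 0.167) in HFD, which missed the threshold after adjustment (limma adjusted p = 0.998). In HSD it was -0.16 (limma adjusted p = 0.855), and in HFSD -0.44 (limma adjusted p = 0.586). The largest difference between retinas on the same diet, in HFSD, was 0.47 on this scale, against a range of 1.07 between the diet means.

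**Figure D1:**
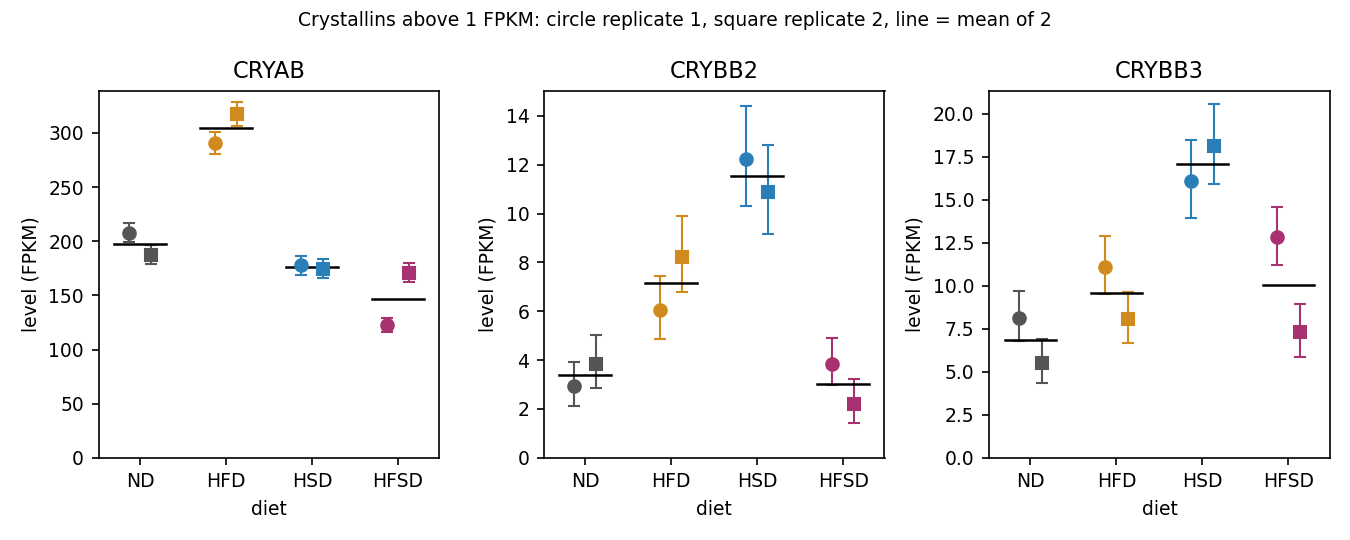
Levels (y axis, FPKM from 0) of CRYAB, CRYBB2 and CRYBB3 in the retinas of each diet (x axis), with replicate 1 as a circle, replicate 2 as a square, the mean of both as a black line, and error bars for the exact 95% Poisson interval of the fragments, which covers counting error only. CRYAB was highest in HFD, at 290.9 and 317.3 FPKM, whereas CRYBB2 and CRYBB3 were highest in HSD.

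The β-crystallin CRYBB2, a main protein of the lens cortex, showed the widest range between diet means of these 3 genes, 1.67 on the log2 scale, against 0.60 at most between retinas on the same diet. Its level was 2.92 and 3.83 FPKM on ND, 6.06 and 8.23 FPKM on HFD, 12.2 and 10.9 FPKM on HSD, and 3.85 and 2.19 FPKM on HFSD. The retinas of HFD and of HSD lay apart from those of every other diet, whereas the ND and HFSD retinas overlapped. The difference from ND was 0.89 (SE 0.241) on the log2 scale in HFD (limma adjusted p = 0.998) and 1.53 (SE 0.241) in HSD (limma adjusted p = 0.151). In HFSD it was -0.15, with a 95% interval from -0.71 to 0.42 (limma adjusted p = 0.897). These values rest on 26 to 145 fragments in a library.

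CRYBB3, another β-crystallin, gave 8.15 and 5.50 FPKM on ND, 11.1 and 8.05 FPKM on HFD, 16.1 and 18.1 FPKM on HSD, and 12.8 and 7.30 FPKM on HFSD. Only the HSD retinas lay apart from the ND retinas, and they were above the retinas of all other diets. The difference from ND was 1.23 (SE 0.280) on the log2 scale in HSD (limma adjusted p = 0.318). It was 0.44 in HFD (95% interval -0.22 to 1.09) and 0.47 in HFSD (95% interval -0.18 to 1.13), with limma adjusted p = 0.998 and 0.696. With 1 retina left out, the difference in HFD lay between 0.19 (without ND replicate 2) and 0.69 (without ND replicate 1). In HFSD it lay between 0.11 (without HFSD replicate 1) and 0.84 (without HFSD replicate 2). In order of diet mean, CRYBB3 stood at 17.1 ± 1.46 FPKM in HSD, 10.1 ± 3.91 FPKM in HFSD, 9.57 ± 2.15 FPKM in HFD and 6.83 ± 1.87 FPKM in ND (SD, n = 2 each), and the 3 lower diets overlapped.

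With 2 retinas against 2, an exact permutation test of a single gene cannot fall below p = 0.333. None of the 3 crystallins that could be tested (0 of 3, each above 1 FPKM in all 8 libraries) passed an adjusted p of 0.05 by limma in any comparison with ND, and none passed by limma voom on fragments. The share of all 12204 genes tested that passed was 0.00819% for HFD, 0.0574% for HSD and 0.0164% for HFSD. Without adjustment, p was under 0.05 for 2 of the 3 in HFD (CRYAB and CRYBB2), 2 in HSD (CRYBB2 and CRYBB3) and 1 in HFSD (CRYAB), with the same numbers by voom, against 4.31%, 7.2% and 8.07% of all genes. These unadjusted counts depended on single retinas: the count in HFD was 1 without HFD replicate 2, and that in HFSD was 0 without ND replicate 1 or HFSD replicate 1 and 2 without HFSD replicate 2. The difference of CRYAB in HFSD was -0.21 without HFSD replicate 1 and -0.68 without HFSD replicate 2. The retinas of the diet did not overlap those of ND for 2 of 3 crystallins in HFD (CRYAB and CRYBB2, higher), for 3 of 3 in HSD (CRYAB lower, CRYBB2 and CRYBB3 higher) and for 1 of 3 in HFSD (CRYAB, lower), against 25.9%, 39% and 42.3% of all genes. The median log2 difference of the 3 was 0.62 for HFD, 1.23 for HSD and -0.15 for HFSD, against 0.0064, -0.0018 and -0.0040 over all genes tested.

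The fold rule of the study's methods takes the ratio of FPKM + 1 to that of ND, and passes genes above 1.54 or below 0.65 without regard to the spread of the retinas. Here the rule was applied to the mean FPKM of the 2 retinas of a diet, a choice the methods do not state. It passed CRYBB2 in HFD (1.86), where CRYAB stood just below the limit at 1.536, and CRYBB2 (2.87) and CRYBB3 (2.31) in HSD. In HFSD it passed 0 of the 8. Over the 19293 protein-coding genes the rule passed 1.76% for HFD, 3.95% for HSD and 3.43% for HFSD. The number of crystallins passed in HFD was 3 without ND replicate 1, and 2 without either HFD retina. In HFSD it was 2 without HFSD replicate 2 and 1 without ND replicate 1.

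The 2 libraries of a diet were compared in the same way. CRYAB differed 1.11-fold between the ND retinas, 1.09-fold in HFD, 1.02-fold in HSD and 1.39-fold in HFSD, on the FPKM + 1 scale. CRYBB2 differed by 1.23-fold, 1.31-fold, 1.12-fold and 1.52-fold in the same order of diets, and CRYBB3 by 1.41-fold, 1.34-fold, 1.12-fold and 1.67-fold. All 3 were closest in HSD and farthest apart in HFSD. The fold rule applied within a diet passed only CRYBB3 in HFSD among the 8 crystallins, where it passed 3.19% of protein-coding genes, and 0 in the ND, HFD and HSD pairs, where it passed 6.92%, 6.31% and 4.7%. In the HFSD pair, 92.1% of genes tested differed less than CRYAB, 95.2% less than CRYBB2 and 96.8% less than CRYBB3, and the crystallins did not differ in one direction: CRYAB was higher in HFSD replicate 2, and CRYBB2 and CRYBB3 in HFSD replicate 1.

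**Figure D2:**
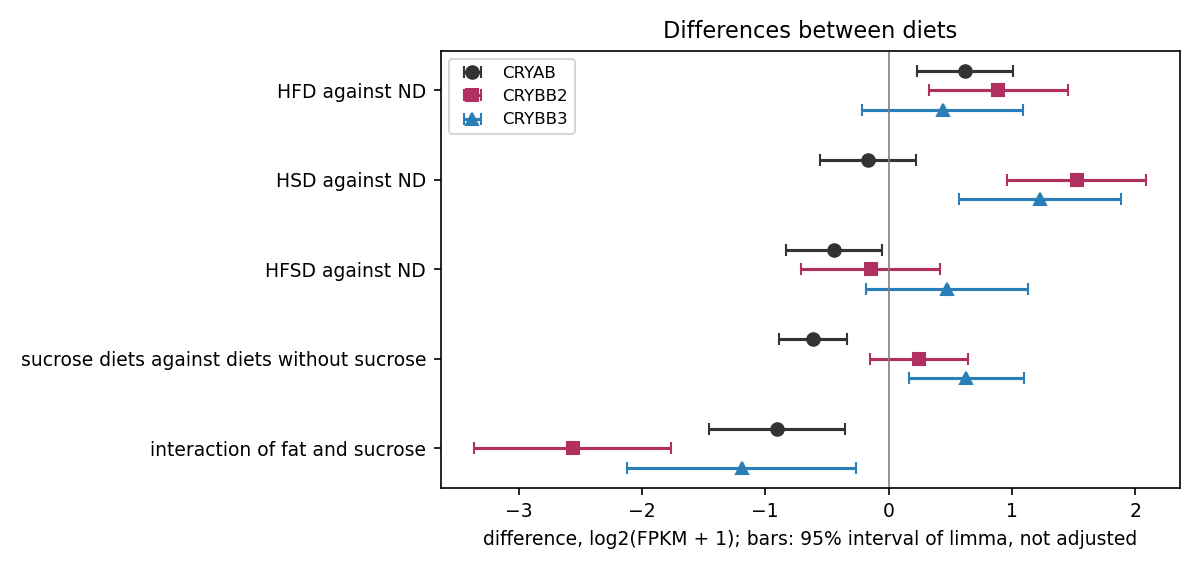
Differences (x axis, log2 of FPKM + 1) of CRYAB (circles), CRYBB2 (squares) and CRYBB3 (triangles) for the 3 diets against ND, for the diets with sucrose against those without, and for the interaction of fat and sucrose (y axis), with unadjusted 95% intervals of limma as bars. The difference farthest from 0 was the interaction of CRYBB2, at -2.56.

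Whether lard with cholesterol and sucrose acted together as the sum of their parts was addressed by the interaction, the HFSD level less those of HFD and HSD plus that of ND. Either single diet had a CRYBB2 level above ND while their combination did not, and its interaction was -2.56 (SE 0.340, 95% interval -3.36 to -1.77; limma adjusted p = 0.248), the 5th of 12204 genes by p. The HFSD chow held less sucrose than the HSD chow (35% against 40%), so that the step from HSD to HFSD and the interaction are not those of lard and cholesterol alone. CRYBB2 was higher in HFD than in ND, and lower in HFSD than in HSD (12.2 and 10.9 FPKM in HSD against 3.85 and 2.19 FPKM in HFSD). CRYAB had an interaction of -0.90 (SE 0.236; limma adjusted p = 0.999), and CRYBB3 one of -1.19 (SE 0.396; limma adjusted p = 0.999). All 3 were under 0.05 before adjustment, by limma and by voom, against 3.74% of all genes, and 0 of 3 passed after it, against 0.00819%. The unadjusted count was 2, with CRYBB3 lost, without ND replicate 2, HFD replicate 1, HSD replicate 2 or HFSD replicate 2. The steps from ND to HFD and from HSD to HFSD had opposite directions, with no overlap of the retinas, for CRYAB and CRYBB2 (4.92% of all genes), and those from ND to HSD and from HFD to HFSD for CRYBB2 (3.05%). For CRYAB, HSD replicate 2 (174.7 FPKM) and HFSD replicate 2 (170.7 FPKM) had overlapping 95% intervals for counting error. A gene with opposite, not overlapping steps of both kinds, up in either single diet and down in the combination as seen for CRYBB2, was found 114 times among the genes tested (0.934%).

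The 4 retinas on sucrose were also set against the 4 without. CRYAB lay lower in all 4, from 122.7 to 177.6 FPKM against 187.4 to 317.3 FPKM. The difference was -0.61 (SE 0.118) on the log2 scale, with limma adjusted p = 0.0902, and a two-sided exact permutation test gave p = 0.0286, which is the smallest that 4 against 4 can give (3 such tests were made, unadjusted). Groups did not overlap for 12.9% of genes tested, and all 4 retinas on sucrose lay lower for 6.48%. CRYBB3 differed by 0.63 in the other direction (limma adjusted p = 0.179, exact permutation p = 0.114) and CRYBB2 by 0.24 (limma adjusted p = 0.467, exact permutation p = 0.657), and in both the groups overlapped. Each value averages the steps from ND to HSD and from HFD to HFSD, which were unlike. By diet mean, CRYAB went from 198 to 176 FPKM and from 304 to 147 FPKM. CRYBB2 went from 3.38 to 11.6 FPKM and from 7.15 to 3.02 FPKM, and CRYBB3 from 6.83 to 17.1 FPKM and from 9.57 to 10.1 FPKM. At an adjusted p of 0.05, 0 of the 3 passed by limma and by voom, against 0.344% of genes, and 2 of 3 lay under 0.05 before adjustment by either, against 18.3%. That count was 1 without HFD replicate 2 and 3 without HFSD replicate 2.

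CRYBB2 and CRYBB3 lie next to each other in the RefSeq annotation of the rabbit assembly mOryCun1.1, and CRYBB1 and CRYBA4 form a second such pair. The ratio of CRYBB2 to CRYBB3, taken within a library and so free of its depth, was 0.359 and 0.696 on ND, 0.546 and 1.02 on HFD, 0.762 and 0.5997 on HSD, and 0.3002 in both HFSD retinas. The HFSD ratios were the lowest of the 8, and the other diets overlapped. Counting error alone gave exact 95% intervals of 0.225 to 0.396 and of 0.186 to 0.469 in the HFSD retinas, which both reached into that of ND replicate 1 (0.248 to 0.511), and the latter also into that of HFD replicate 1 (0.419 to 0.708). The genes next to this pair on either side differed from ND, on the log2 scale, by -0.21 to -0.15 over the diets (KIAA1671) and by -0.07 to 0.24 (GRK3), beside 1.53 for CRYBB2 and 1.23 for CRYBB3 on HSD.

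**Figure D3:**
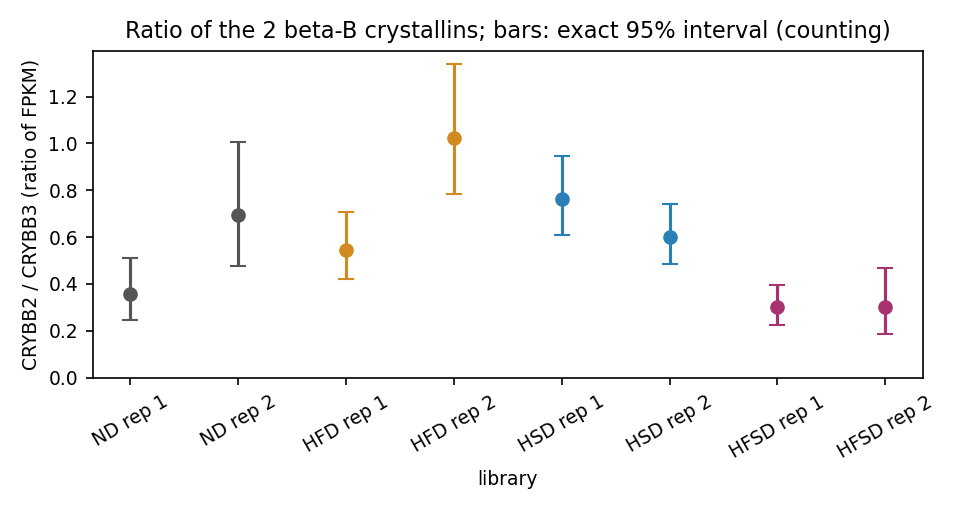
Ratio of CRYBB2 to CRYBB3 FPKM (y axis, from 0) in each of the 8 libraries (x axis), with exact 95% intervals for counting error as bars. The ratio was 0.3002 in both HFSD retinas and ranged from 0.359 to 1.02 in the others.

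The 5 remaining members rested on few fragments. CRYBA2, a β-crystallin, had 39 fragments over all libraries and 1 to 11 in each. CRYBA4 and CRYBB1, β-crystallins that lie side by side, had 25 fragments each and none in 2 libraries each. CRYGS, the γ-crystallin of the mature lens cortex, had 19 fragments, at most 3 in a library, and none in 1 library. CRYBA1, whose product is also known from retinal astrocytes, had 5 fragments and none in 4 libraries. For CRYBA1 in ND replicate 1, with no fragment, the exact two-sided 95% Poisson interval reached 0.2004 FPKM, and the limit of 3 fragments is 0.163 FPKM. Summed, these 5 genes gave 4 fragments in HFSD replicate 2 and 10 to 23 in the other libraries, without an order by diet. Fitted without the filter, 0 of these 5 passed an adjusted p of 0.05 by limma in any contrast. Of the 16404 genes in that fit, 1 passed in HFD, 3 in HSD and 2 in HFSD against ND. For the interaction 0 passed, and with sucrose 8. Before adjustment, CRYBA1 alone of the 5 had a p under 0.05, in HSD against ND (log2 difference 0.13, limma adjusted p = 0.716), from 3 fragments against none. With a pseudocount of 0.1, CRYBA1 passed the fold rule in HSD (1.94) and CRYBA2 in HFSD (0.427, lower). The shares of all genes under 0.05 before adjustment in that fit, and passed by the rule with that pseudocount, are not given here.

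**Figure D4:**
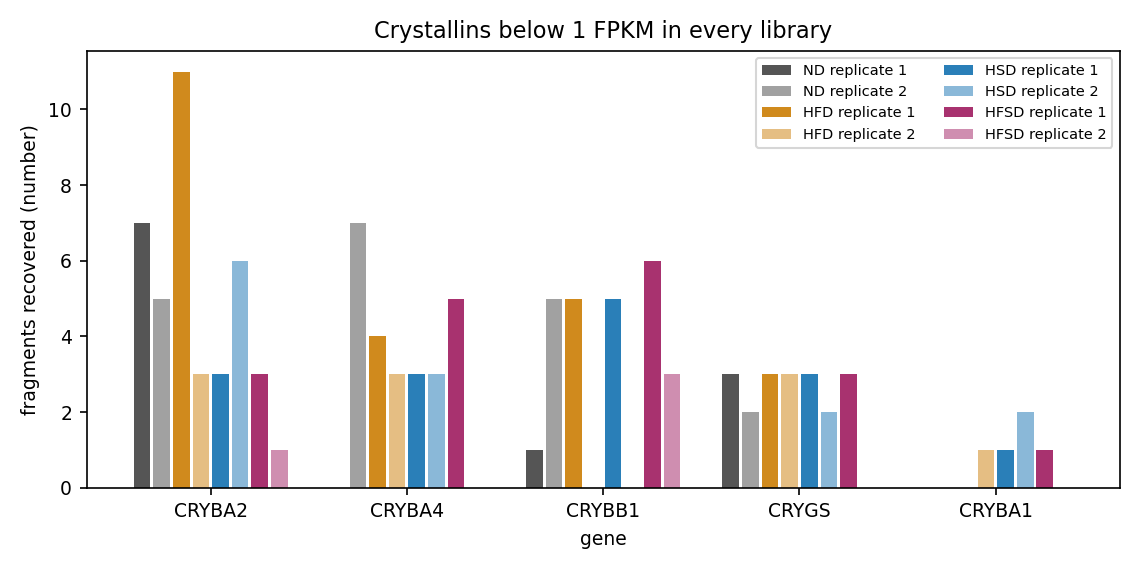
Fragments recovered (y axis, number, from 0) for the 5 crystallins below 1 FPKM (x axis) in each library, with replicate 1 of a diet in the full colour and replicate 2 in the pale one. The highest bar is the 11 fragments of CRYBA2 in HFD replicate 1.

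Markers of the lens were present at low levels. Of 12 genes that define lens cells, 8 were measured, among them the water channel MIP, LIM2, the connexin GJA3, the filament genes BFSP1 and BFSP2, LGSN and the lens heat shock factor HSF4. Their summed level was 4.20 and 1.94 FPKM on ND, 1.97 and 2.41 FPKM on HFD, 2.72 and 3.002 FPKM on HSD, and 3.25 and 2.80 FPKM on HFSD. LIM2 was at 0 in all libraries, MIP lay between 0.148 and 0.343 FPKM, and HSF4, the only one above the filter, gave the largest part. The summed level was highest in ND replicate 1, where HSF4 gave 2.63 FPKM of it. Without HSF4, a choice made after seeing the data, the other 7 lens genes summed to 1.57 and 1.15 FPKM on ND, 0.910 and 1.19 FPKM on HFD, 1.22 and 1.67 FPKM on HSD, and 1.15 and 0.883 FPKM on HFSD, so that HSD replicate 2 was highest. By diet mean, MIP was lowest in HSD (0.185 FPKM, against 0.275 FPKM in ND), whereas BFSP1 stood in the same order of diets as CRYBB2 except that HFSD and ND changed places, at 0.316 FPKM in HSD, 0.186 FPKM in HFD, 0.0451 FPKM in HFSD and 0.0337 FPKM in ND. BFSP1 rested on 18, 12, 3 and 2 fragments in these diets, 15 of the 18 in HSD replicate 2. BFSP2 had 6 fragments in HSD, 6 in HFSD, 1 in HFD and 1 in ND. GJA3 and LGSN went the other way, GJA3 with none in HSD, 2 in HFSD, 6 in HFD and 7 in ND, and LGSN with 1 in HSD, 1 in HFSD, 18 in HFD and 16 in ND. The part of lens markers in the β-crystallin levels was not tested.

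Markers of other cells and tissues differed between some retinas. The 11 measured muscle genes, led by MYL1 and TCAP, summed to 558.8 FPKM in HSD replicate 2 and to 13.2 to 17.0 FPKM elsewhere, while CRYAB, which muscle also makes, was 174.7 FPKM in that library and 177.6 FPKM in HSD replicate 1. The 10 pigment epithelium genes, led by TTR and RPE65, summed to 333.6 and 247.5 FPKM in ND and to 27.7 to 93.9 FPKM in the other diets, none of them at 0 in a whole group; their part in the crystallin differences from ND was not tested. The 9 Müller glia genes, led by GLUL and CLU, summed to 2953 to 3859 FPKM in ND and HFD and to 1956 to 2078 FPKM in HSD and HFSD, and the sum was thus lower in the same 4 retinas as CRYAB. Single genes of the list differed in this: with sucrose 0 of 9 passed an adjusted p of 0.05 by limma and 4 of 9 (GLUL, CLU, RLBP1 and DBI, lower) had an unadjusted p under 0.05, against 0.344% and 18.3% of all genes tested. Of the other 5, AQP4 differed by -0.52 on the log2 scale (limma adjusted p = 0.395), and SLC1A3 (-0.01), KCNJ10 (0.03), DKK3 (0.06) and SOX9 (-0.06) had differences near 0. The part of these genes in the CRYAB difference was not tested. GLUL itself, glutamine synthetase, ran from 1489 to 2127 FPKM without sucrose and from 721.7 to 889.7 FPKM with it (log2 difference -1.07, limma adjusted p = 0.0501). GFAP, a glial filament gene singled out after its values were seen, was 216.1 and 202.9 FPKM on HFD, where CRYAB was highest, 2.37 and 1.08 FPKM on HSD, and 3.05 and 69.5 FPKM on HFSD. The retina with more GFAP had more CRYAB on HFSD and less on HFD. On ND it was 524.2 and 12.1 FPKM, beside CRYAB levels of 207.9 and 187.4 FPKM. With sucrose GFAP differed by -4.30 on the log2 scale (limma adjusted p = 0.165), and its part in the CRYAB levels was not tested.

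**Figure D5:**
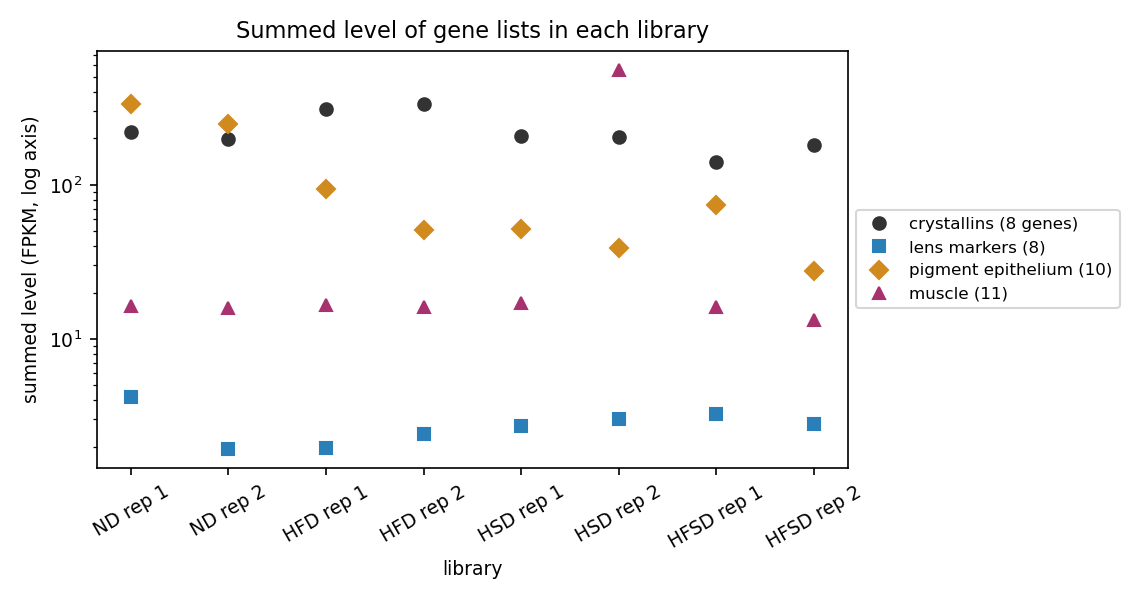
Summed level (y axis, FPKM, log axis) of the 8 crystallins, 8 lens markers, 10 pigment epithelium genes and 11 muscle genes in each library (x axis). Muscle genes stood at 558.8 FPKM in HSD replicate 2 alone, and lens markers stayed between 1.94 and 4.20 FPKM.

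Genes with profiles most like those of the crystallins were ranked by the root mean square difference of log2 values over the 8 libraries, each profile centred on its own mean, among 9874 genes with a symbol. For CRYAB, whose own profile has a root mean square of 0.411, the nearest were ATOH8 (0.179), HR (0.183), TSPAN15 (0.189), TP53I13 (0.193) and PDLIM4 (0.193). The mean profile of all 7 β- and γ-crystallins had a root mean square of only 0.193, since 5 of the 7 lay near 0 FPKM throughout, so that genes near it vary far less than CRYBB2 or CRYBB3. The nearest to this mean were AKAP5 (0.0817), MRAS (0.0825), TNFRSF1B (0.0869), XKR6 (0.0934) and CLDN6 (0.0950). The profiles share their libraries, so the ranking is a description.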

How the data were processed

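Retinal RNA was extracted with TRIzol and sequenced on a HiSeq instrument after TruSeq library preparation. Per the submitters' processing notes and methods, reads were checked with FastQC and aligned with TopHat2. The deposited FPKM values were made by the authors in R from uniquely placed reads. The table is named for counts but holds FPKM, so a count test was not the main one. The genome build is not given in the sources used here, and neither sequences nor coordinates are printed.

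Whole fragments were recovered from the steps of the FPKM values (100% of values above 0 whole within 0.02 fragments). They carry counting error only. Protein-coding genes that reached 1 FPKM in 2 or more libraries (12204) entered limma 3.58.1 (R 4.3.3) on log2(FPKM + 1), a pseudocount that understates the change of low genes, with a mean-variance trend, 1 model of all 8 libraries and Benjamini-Hochberg adjustment. Intervals are 95%. Exact tests used scipy 1.17.1. The script was tested on simulated data. Alternatives were a pseudocount of 0.1, no filter, a replicate block, median centring, voom, leaving out each library, fits of 4 libraries and, chosen after seeing the data, depth as summed fragments. The genes named were all members, other crystallins and lens markers, the 2 highest of each list and the 5 nearest profiles, except that some genes this rule names are not reported here. GFAP, HSPB3 and the Müller glia genes other than GLUL and CLU were named after their values were seen. Members and lists were chosen with earlier results of these data known. No value column lacked a sample (0).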

Additional observations from a re-analysis of the deposited data

Results flagged for a closer look

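CRYAB and CRYBB2 stood out because the steps from ND to HFD and from HSD to HFSD had opposite directions, with no overlap of the retinas. The HFSD chow held 35% sucrose and the HSD chow 40%. CRYAB was higher in both HFD retinas than in both ND retinas, and lower in both HFSD retinas than in both HSD retinas, with an interaction of -0.90 on the log2 scale (limma adjusted p = 0.999). CRYBB2 did so as well, and its steps from ND to HSD and from HFD to HFSD were opposite too, with an interaction of -2.56 (limma adjusted p = 0.248). Neither interaction passed an adjusted p of 0.05. For CRYAB the nearest retinas of the step from HSD to HFSD, both replicate 2, were at 174.7 and 170.7 FPKM. Their 95% counting intervals overlapped (166.3 to 183.3 and 162.1 to 179.6 FPKM). Over all genes tested, the former steps were opposite in this way for 4.92% and the latter for 3.05%.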

How the results depend on the processing

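No crystallin passed an adjusted p of 0.05 by limma in any comparison under any alternative run (0 of 3), and the adjusted p came nearest for CRYAB with sucrose, from 0.0837 to 0.241 over the settings. For the interaction of CRYBB2 it ranged from 0.217 to 0.731, and the difference from -3.01 to -2.26. The direction of CRYBB2 in HFSD against ND depended on 1 retina: it was -0.15, and from -0.45 to 0.16 with a retina left out, with 0.0043 without ND replicate 2 and 0.16 without HFSD replicate 2. The fold rule passed 1 crystallin in HFD, and 1 to 3 with a retina left out; in HFSD it passed 0, and 0 to 2 with a retina left out, or 1 with a pseudocount of 0.1. Within diets that pseudocount raised the number passed from 0 to 2 in ND, from 0 to 3 in HFD, from 0 to 2 in HSD and from 1 to 4 in HFSD. The shares of all protein-coding genes passed with that pseudocount, or with a retina left out, are not given here. These counts therefore cannot be set against them. Unadjusted counts also changed in HFSD, from 1 to 0, with only the 4 libraries compared and with depth as summed fragments. No strong deviation was shared by replicate number: differences of replicate 1 from replicate 2 correlated between -0.165 and 0.0813 over genes for pairs of diets. Whether retinas with the same number were handled together cannot be told from this. With a replicate block 0 of 3 crystallins passed in each comparison, and the adjusted p of the CRYBB2 interaction was 0.583. With 2 retinas in a diet and 26 to 145 fragments on CRYBB2 in a library, depth and replicate number limit these values.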

Other observations

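Crystallin genes outside the 9 were also measured. CRYM, a thyroid hormone binding protein that is a lens crystallin in some marsupials, was 40.3 and 41.8 FPKM in ND, 57.2 and 98.9 FPKM in HFD, 9.05 and 39.1 FPKM in HSD, and 15.6 and 34.5 FPKM in HFSD. All 4 retinas on sucrose were lower than the 4 without, by 1.36 on the log2 scale in the mean, a difference that did not pass adjustment (limma adjusted p = 0.194). CRYL1, the λ-crystallin of rabbit lens and a sugar dehydrogenase, was likewise lower in all 4, from 8.41 to 10.2 FPKM against 11.01 to 12.98 FPKM (limma adjusted p = 0.224). All 4 retinas on sucrose lay lower for 6.48% of all genes tested. For CRYM the nearest retinas were HSD replicate 2 (39.1 FPKM) and ND replicate 1 (40.3 FPKM). Their 95% counting intervals overlapped (36.3 to 42.1 and 37.7 to 43.1 FPKM). The γ-crystallin CRYGN differed by -1.05 with overlapping groups (limma adjusted p = 0.172). CRYZ, a quinone reductase, had an interaction of 0.61 (limma adjusted p = 0.999). CRYZL1 lay between 17.5 and 21.5 FPKM and CRYBG1 between 0.452 and 1.86 FPKM. CRYGC reached 0.605 FPKM and CRYBG2 0.0466 FPKM at most, and CRYGA was listed at 0 throughout. Of these 9 genes 6 were tested, 0 passed an adjusted p of 0.05 in the contrast of sucrose, and 3 had p under 0.05 before adjustment, all lower, against 0.344% and 18.3% of all genes tested.

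Of the transcription factors known to act on crystallin genes, 9 were measured and 7 tested, among them NRL, which defines rods, and PAX6. None of the 7 had a limma p under 0.05 in any of the 5 contrasts, adjusted or not. Against ND, an unadjusted p this low was reached by 4.31% (HFD), 7.2% (HSD) and 8.07% (HFSD) of all genes tested. The interaction gave 3.74% and the contrast of sucrose 18.3%. After adjustment the shares were 0.00819%, 0.0574%, 0.0164%, 0.00819% and 0.344% in the same order. Whether 0 of 7 departs from these shares was not tested. The differences of the 7 from ND lay between -0.39 and 0.18 on the log2 scale. Of the small heat shock genes, 6 were measured, led by HSPB6 and HSPB8, and 5 were tested. Only HSPB3 had an unadjusted p under 0.05 (HSD against ND, log2 difference 1.17, limma adjusted p = 0.690), against 7.2% of all genes tested in that contrast. It was 1.53 FPKM in HSD replicate 1 and 3.18 FPKM in HSD replicate 2, the library with muscle genes at 558.8 FPKM in sum. Of 8 tested genes that mark retinal stress, led by VIM and CLU, 1 was higher in HFD, 2 were lower in HSD, 1 was lower in HFSD, 1 had an interaction below 0 and 4 were lower with sucrose at an unadjusted limma p under 0.05, against 4.31%, 7.2%, 8.07%, 3.74% and 18.3% of all genes tested, and 0 passed after adjustment. The 5 measured cornea genes, led by LUM and KRT14, summed to 15.8 to 28.0 FPKM.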
